A study of Mus musculus with 3 samples.

Results

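Chromatin just downstream of gene ends was examined in natural killer cells, the lymphocytes that kill infected or transformed cells without prior sensitisation. A transcript-end site was defined as an accessible region whose peak had its middle outside every annotated exon and within 1 kb downstream of the 3' end of a protein-coding gene, in at least 2 libraries. An end was used only where it lay more than 2500 bp from any annotated start site. This gave 501 sites, 0.761% of the 65804 sites found in at least 2 libraries. They lay at 476 genes, 3.25% of the 14653 protein-coding genes with such an end, and 25 genes held 2 sites each. A further 38487 sites lay more than 1500 bp from any start site and served as the comparison. Among them, 1753 lay between 1 and 5 kb downstream of the same kind of end.

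The series measured DNase I accessibility in 3 libraries of natural killer primary cells from male virgin B6CASTF1/J mice, first-generation hybrids of the C57BL/6 and CAST backgrounds, at 2 months of age. All libraries form 1 group, carry 1 donor label and 3 different biosample labels, and no label states that they came from separate animals, so p-values measure only the spread between these libraries, which can be technical. The labels name no sort or gate. Positions and sequences refer to the mm10 assembly, which is of C57BL/6 origin, and the CAST allele was not analysed here.

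A transcript ends where its RNA is cleaved and polyadenylated, and RNA polymerase II continues for some distance before it is released. Regulatory elements and sites of the zinc-finger protein CTCF, which binds DNA and limits the sliding of cohesin loops, can lie in the same stretch. DNase I cuts accessible chromatin, and a footprint is a short stretch inside an accessible site where fewer cuts are seen, as when a protein covers the DNA. In such bulk samples, a site open in fewer cells and a site less open in each cell cannot be told apart.

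The peaks differed in number between libraries, with 40484 in replicate 1, 84564 in replicate 2 and 81854 in replicate 3. Of these, 269, 626 and 616 had their middle at a transcript end. The read depth is unknown. Start sites of 10 natural killer marker genes were open in 7, 10 and 10 cases in replicates 1, 2 and 3, and those of 10 B cell markers in 7, 10 and 9. The median percentile over the 10 natural killer markers was 71.3, 76.0 and 86.4, and over the 10 B cell markers 26.7, 84.3 and 73.4, so the B cell markers were the stronger in replicate 2. For T cell markers the numbers were 2, 8 and 5 of 10, with Cd4 and Cd8a closed in every library, for myeloid markers 2, 4 and 3 of 10, and for erythroid markers 0, 1 and 2 of 6. Whether other cells contributed to the sites described here was not tested.

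The 4 sites below are printed because 3 are among the 12 highest in signal and the fourth lies behind Socs3, an inhibitor of cytokine signalling. Each is the whole peak in mm10, 5' to 3' on the strand of its gene, with capitals for bases inside a footprint in at least 2 libraries. Fam120a is at chr13:48878661-48878860 (minus strand), Copz2 at chr11:96861981-96862220 (plus), Ctdsp1 at chr1:74397381-74397600 (plus) and Socs3 at chr11:117965601-117965880 (minus).
Fam120a: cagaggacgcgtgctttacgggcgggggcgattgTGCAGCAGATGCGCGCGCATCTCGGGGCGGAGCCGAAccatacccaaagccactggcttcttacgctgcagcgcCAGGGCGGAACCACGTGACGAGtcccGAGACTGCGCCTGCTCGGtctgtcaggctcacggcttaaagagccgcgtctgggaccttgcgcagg
Copz2: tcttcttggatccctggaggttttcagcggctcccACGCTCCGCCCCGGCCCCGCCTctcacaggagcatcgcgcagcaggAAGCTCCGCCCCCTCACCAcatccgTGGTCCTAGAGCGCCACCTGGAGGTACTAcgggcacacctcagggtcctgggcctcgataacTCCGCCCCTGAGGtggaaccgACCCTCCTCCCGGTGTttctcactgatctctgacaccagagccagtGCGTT
Ctdsp1: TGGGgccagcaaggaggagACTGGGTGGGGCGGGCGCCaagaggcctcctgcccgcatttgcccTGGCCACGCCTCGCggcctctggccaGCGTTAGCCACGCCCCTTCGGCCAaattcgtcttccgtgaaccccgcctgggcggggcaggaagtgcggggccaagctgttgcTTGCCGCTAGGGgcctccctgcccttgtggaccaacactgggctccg
Socs3: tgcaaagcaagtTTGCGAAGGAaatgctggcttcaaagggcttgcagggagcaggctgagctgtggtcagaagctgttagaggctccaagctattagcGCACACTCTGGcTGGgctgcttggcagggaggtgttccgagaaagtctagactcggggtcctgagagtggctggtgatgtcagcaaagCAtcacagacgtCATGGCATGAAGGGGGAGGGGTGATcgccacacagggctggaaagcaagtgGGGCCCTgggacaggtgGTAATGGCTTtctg
Footprints covered 77 of the 200 bases behind Fam120a, 104 of 240 behind Copz2, 73 of 220 behind Ctdsp1 and 68 of 280 behind Socs3. The first 3 are CpG-rich, with a GC content of 64.7%, 68.0% and 69.3% around the middle, whereas the Socs3 site has 56.0%. They are not typical, since 35 of all 501 sites are CpG-rich and the median GC content is 52.0%.

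The next 6 are sites with a CTCF motif that a footprint covered in every library holding the site, printed to show the motif and its strand. Capitals mark the motif. Lag3 is at chr6:124903661-124903860 (minus), Ripor1 at chr8:105622481-105622680 (plus), Bcan at chr3:87987001-87987200 (minus), Srxn1 at chr2:152112021-152112220 (plus), Acvrl1 at chr15:101145521-101145720 (plus) and Elf4 at chrX:48410221-48410380 (minus).
Lag3: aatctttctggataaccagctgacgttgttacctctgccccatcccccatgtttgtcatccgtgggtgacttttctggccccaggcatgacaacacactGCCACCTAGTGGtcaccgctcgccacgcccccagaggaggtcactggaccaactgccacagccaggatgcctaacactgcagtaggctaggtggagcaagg
Ripor1: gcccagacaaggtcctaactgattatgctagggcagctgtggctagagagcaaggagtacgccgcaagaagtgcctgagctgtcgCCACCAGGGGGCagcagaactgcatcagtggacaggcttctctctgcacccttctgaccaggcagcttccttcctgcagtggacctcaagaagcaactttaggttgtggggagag
Bcan: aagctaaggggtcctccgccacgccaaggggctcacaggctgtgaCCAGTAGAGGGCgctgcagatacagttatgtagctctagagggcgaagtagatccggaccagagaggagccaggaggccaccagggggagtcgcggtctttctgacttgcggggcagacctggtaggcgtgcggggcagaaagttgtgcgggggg
Srxn1: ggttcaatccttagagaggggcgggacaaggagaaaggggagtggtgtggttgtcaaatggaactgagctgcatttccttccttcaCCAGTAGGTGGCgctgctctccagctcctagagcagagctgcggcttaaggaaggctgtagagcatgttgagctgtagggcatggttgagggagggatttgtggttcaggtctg
Acvrl1: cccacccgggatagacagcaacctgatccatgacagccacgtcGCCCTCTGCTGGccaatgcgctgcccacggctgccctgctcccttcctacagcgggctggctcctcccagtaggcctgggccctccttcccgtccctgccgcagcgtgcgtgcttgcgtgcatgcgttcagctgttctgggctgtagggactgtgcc
Elf4: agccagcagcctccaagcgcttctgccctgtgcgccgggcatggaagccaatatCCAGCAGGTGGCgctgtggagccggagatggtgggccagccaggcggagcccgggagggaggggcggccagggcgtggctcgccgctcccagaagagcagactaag
At Ripor1, Bcan, Srxn1 and Elf4 the motif reads on the strand of the gene, and at Lag3 and Acvrl1 on the opposite strand.

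Transcript-end sites were of moderate strength. The signal of a peak, a height the authors gave it on a scale that is not stated, was ranked among all peaks of its library, so that 100 is the strongest peak. The median percentile of the transcript-end sites was 49.9 in replicate 1 (250 sites), 60.2 in replicate 2 (501 sites) and 58.4 in replicate 3 (499 sites). Individual sites ran from 1.40 to 97, from 2.59 to 99.5 and from 2.92 to 98.5. Percentile 90 was reached by 7, 26 and 25 of them (2.80%, 5.19% and 5.01%, against 1.33%, 2.94% and 3.20% of other sites away from promoters). Percentile 10 or lower held 12, 8 and 10 (4.80%, 1.60% and 2.00%, against 8.64%, 4.45% and 4.62%). Replicate 1 was lower throughout, also at sites elsewhere, and 41.7% of its peaks lay at promoters against 26.4% and 26.9% in the others.

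These values were higher than at other sites away from promoters, whose medians were 41.8, 53.6 and 52.1. The difference was 8.05, 6.58 and 6.32 percentile points, a mean of 6.98 ± 0.933 (SD, n = 3). The direction was the same in 3 of 3 libraries, and the exact two-sided sign-flip test gave p = 0.25, the smallest that 3 libraries allow, so this test could not pass 0.05 for any comparison here. On the authors' signal scale the members' medians were 1.07, 1.13 and 1.15, and the difference of the median log2 signal was 0.28 ± 0.03 (SD, n = 3). Sites 1 to 5 kb downstream of such ends had medians of 48.2, 61.0 and 58.4, and the difference of 0.313 ± 1.25 points (SD, n = 3, exact sign-flip p = 0.75) was smaller than its spread. Promoter sites stood far above, at 75.7, 82.2 and 80.7.

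**Figure D1:**
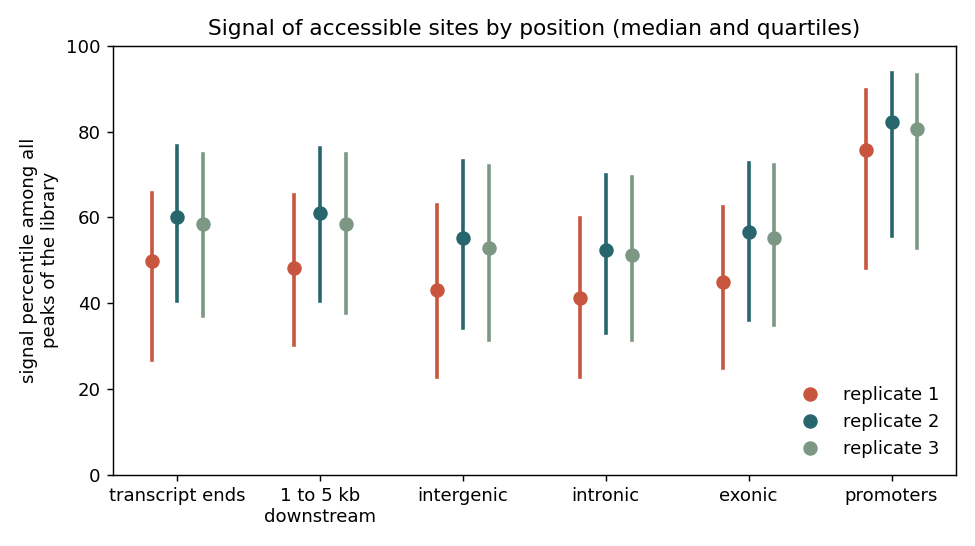
Signal percentile (vertical axis, rank among all peaks of the library) of sites by position, with the median as a point and the quartiles as a line for each of the 3 libraries. Transcript-end sites, at medians of 49.9, 60.2 and 58.4, sat level with sites 1 to 5 kb downstream, above intergenic and intronic sites, and below promoters.

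Distance from the nearest start site moved with this difference. Transcript-end sites lay a median of 6.68 kb from a start site, against 9.58 kb for the other sites away from promoters. Between 5 and 10 kb from a start site, the 168 transcript-end sites had medians of 54.1, 62.9 and 61.6 and the other sites 43.7, 56.1 and 54.3. Beyond 20 kb the 51 transcript-end sites had medians of 33.7, 46.4 and 44.7, just under the 35.3, 46.7 and 45.1 of other sites. With the other sites weighted to the same distribution of distances, a calculation added after the data had been seen, the difference was 5.31 ± 0.742 points (SD, n = 3). Whether the difference varies with that distance was not tested.

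Within the window the signal varied little in replicates 2 and 3, and in replicate 1 it was highest in the last 200 bp. The 87 sites in the first 200 bp had medians of 47.5, 58.2 and 56.5, and the 101 sites from 800 to 1000 bp had 54.1, 60.7 and 58.6. At the limit of the rule, the 28 sites in the last 50 bp had medians of 52.9, 66.0 and 64.3, and the 23 sites in the 50 bp beyond it had 31.1, 57.8 and 56.1. Sites from 5 to 10 kb downstream, at 47.7, 60.5 and 59.4, were close to the first kilobase as well.

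Presence across libraries followed replicate 1. Of the 501 transcript-end sites, 248 (49.5%) were found in all 3 libraries, against a background of 43.2% of the other sites away from promoters and 49.8% of sites 1 to 5 kb downstream. A further 251 were found in replicates 2 and 3 only, 2 in replicates 1 and 2 only, and 0 in replicates 1 and 3 only. Sites found in all 3 libraries had median percentiles of 76.4 and 74.5 in replicates 2 and 3, and those missing from replicate 1 had 43.4 and 39.5. Of those 251, 16 (6.37%) held an interval with a cut-rate FDR of 0.05 or less in replicate 1, against 5.44% of other sites missing there. Without replicate 1 the rule gave 496 sites, without replicate 2 it gave 243 and without replicate 3 it gave 247.

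Peaks were about as dense in the first kilobase as further downstream. In sequence open to the rule (outside exons and more than 1500 bp from a start site), peak middles occurred at 19.9, 46.4 and 45.7 per Mb within 1 kb of the end. From 1 to 5 kb they occurred at 20.2, 47.4 and 45.4 per Mb. The difference was −0.321 ± 0.618 per Mb (SD, n = 3, exact sign-flip p = 0.5), and the density from 5 to 10 kb was 18.3, 41.8 and 39.9 per Mb. Inside the kilobase the density was uneven. The first 200 bp held 14.6, 41.8 and 37.8 peaks per Mb, 6.25 ± 1.13 fewer than at 1 to 5 kb in 3 of 3 libraries (exact sign-flip p = 0.25). The next 200 bp held 25, 51.8 and 52.2 per Mb, 5.35 ± 1.27 more in 3 of 3 libraries (exact sign-flip p = 0.25). Behind genes with no open promoter in any library, that second bin was instead lower than 1 to 5 kb in 3 of 3 libraries (−1.10, −5.63 and −1.90 per Mb). It held only 11, 22 and 26 peaks there, so these differences rest on very few peaks. Over all ends those bins hold few peaks, 40, 115 and 104 in the first and 68, 141 and 142 in the second. A peak within the first 200 bp can reach back into the last exon, and peaks with their middle there are outside the rule.

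**Figure D2:**
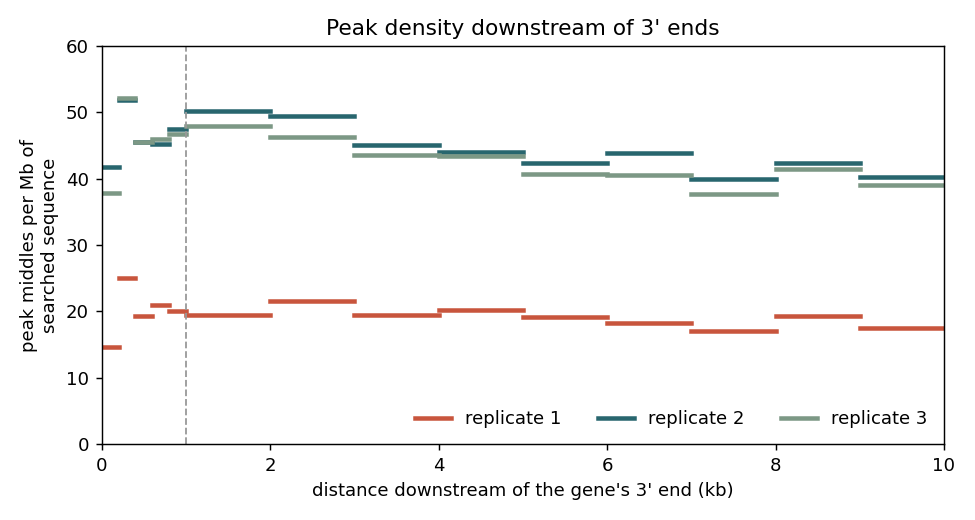
Peak middles per Mb of searched sequence (vertical axis) against distance downstream of the 3' end in kb (horizontal axis), in bins of 200 bp up to 1 kb (dashed line) and of 1 kb beyond, with 1 colour per library. The lowest bin of the first kilobase is the first 200 bp (14.6, 41.8 and 37.8) and the highest is the next one (25, 51.8 and 52.2), in each library.

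Genes with an accessible end more often had an accessible start. The gene's own promoter was open in all 3 libraries at 318 of 476 genes (66.8%), against a background of 53.2% of all eligible genes, and in none at 100 genes (21%, against 36.7%). Peaks in the first kilobase behind genes with a promoter open in all 3 libraries occurred at 25.6, 59.7 and 60 per Mb, and behind genes with no open promoter at 10.6, 26.3 and 24.3 per Mb. From 1 to 5 kb the values were 26.3, 62.3 and 58.7 against 11.8, 27.1 and 27.3, so the gap between these genes was present there too. Sites behind genes with a promoter open in all 3 libraries had median percentiles of 51.5, 61.3 and 59.5, and the 103 sites behind genes with no open promoter had 46.7, 56.5 and 54.5. For converging genes the shares were close. Another protein-coding gene ended within 5 kb on the other strand at 13.2% of ends with a site and at 14.1% of all eligible ends. The polyadenylation signal AATAAA or its variant ATTAAA stood in the last 50 bases of 77.9% of genes with a site and of 74.9% of all eligible genes.

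Most of the sites lay outside any gene, 447 of 501, and 54 lay in an intron of another gene. In the RefSeq annotation of the same assembly, 31 (6.19%) had their middle in an exon of some transcript and 3 (0.599%) within 500 bp of a start, against 4.18% and 2.41% of other intronic and intergenic sites away from promoters. Exons of curated transcripts held 1.60% of them against 0.227%. The 467 sites in neither place had median percentiles of 49.4, 59.8 and 57.9. The median peak was 200 bp wide. GC content in 150 bp was 52.0% (median), against 51.3% at other sites away from promoters and 63.3% at promoters. Only 35 sites (6.99%) were CpG-rich, defined as GC above 50% with more than 0.6 of the CpG dinucleotides that the base content gives, against 5.57% of the other sites and 65.2% of promoter sites. Those 35 had median percentiles of 58.2, 76.7 and 73.3, above the 48.2, 59.3 and 57.3 of the remaining 466. Every 32-base word of the peak occurred at 1 place in the assembly at 449 sites (89.6%), and at 5 sites fewer than 50% of the words did.

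Most transcript-end sites were footprinted. A footprint lay inside 81.2% of them in replicate 1, 92.6% in replicate 2 and 90.6% in replicate 3, against 75.3%, 90.1% and 88.8% of the other sites away from promoters. The difference was 3.41 ± 2.18 percentage points (SD, n = 3, higher in 3 of 3 libraries, exact sign-flip p = 0.25). It moved with the signal. When the other sites were weighted to the members' distribution over 10 signal classes, the difference was 0.171 ± 1.18 points (exact sign-flip p = 1.0, n = 3). Against sites 1 to 5 kb downstream it was −0.645 ± 0.338 points (lower in 3 of 3 libraries, exact sign-flip p = 0.25). Among the members, 384 (76.6%) were footprinted in every library that held them and 11 (2.20%) in none, against 72.7% and 3.45% of the other sites away from promoters. Footprints covered 12.3%, 18.6% and 17.4% of the bases of transcript-end sites, and 9.69%, 15.2% and 14.4% of those of the other sites. At sites 1 to 5 kb downstream they covered 12%, 18.5% and 17.5%, close to the transcript-end sites.

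**Figure D3:**
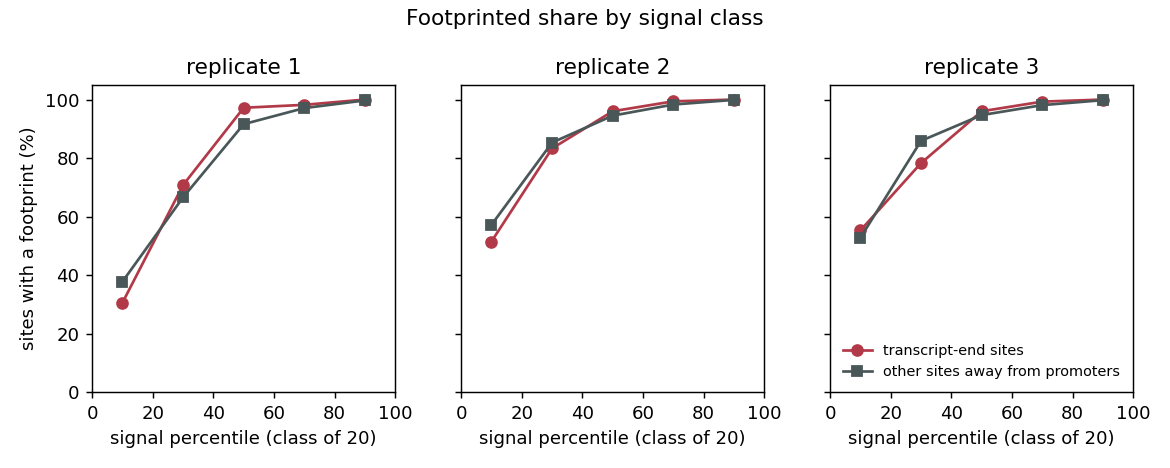
Share of sites with a footprint (vertical axis, %) by signal percentile in 5 classes of 20 (horizontal axis, plotted at the class middle), for transcript-end sites and other sites away from promoters, 1 panel per library. Both groups climb together, from 30.6% and 37.8% in the lowest class of replicate 1 to 100% and 99.7% in its highest.

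The CTCF motif was more frequent at transcript ends than at other sites away from promoters. Of 25 motifs searched on both strands in the 150 bp around the middle of the strongest peak, the 95% Wilson interval of the members' share left out the share of other sites away from promoters for CTCF and for the ETS motif GGAAGT. The intervals cover counting error only and were not adjusted for the number of motifs. The CTCF motif was present at 85 of 501 transcript-end sites (17.0%, interval 13.9% to 20.5%), against 10.9% of the other sites, 12.5% of intergenic sites and 2.18% of promoter sites. It was also present at 17.1% of sites 1 to 5 kb downstream. The GGAAGT motif, bound by ETS factors such as Ets1, was found at 16.6% of transcript-end sites (interval 13.6% to 20.1%), 20.9% of the other sites and 16.7% of sites 1 to 5 kb downstream. The log2 ratio of its share over that of the other sites, −0.34, was −0.17 with motifs counted in the whole peak and −0.13 without replicate 2. Both shares in the first kilobase were thus nearly those found further downstream.

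For other motifs of lymphocyte regulators the interval included the share of the other sites. The RUNX motif TGTGGT was found at 22.0% of transcript-end sites and 23.5% of the other sites, the T-box motif AGGTGTGA, recognised by T-bet and Eomes, at 2.00% and 1.70%, and the AP-1 motif TGANTCA at 6.79% and 8.83%. The STAT motif TTCNNNGAA stood at 3.79% and 3.90%. The log2 ratio for RUNX, −0.10, was −0.43 without replicate 2 and −0.39 without replicate 3, and that for the T-box, 0.23, was −0.67 without replicate 2. The promoter motifs GGGCGG (GC box) and CCGGAAG (ETS of the GABP type) were present at 8.38% and 1.20% of transcript-end sites, far from the 45.3% and 10.5% of promoter sites. The AATAAA hexamer, the signal for cleavage and polyadenylation, was found at 7.39% of transcript-end sites and 7.52% of the other sites.

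The CTCF motif more often read on the gene's strand than on the other. Of the 85 motifs behind transcript ends, 56 read on the strand of the gene (65.9%, interval 55.3% to 75.1%) and 29 on the opposite strand. From 1 to 5 kb downstream the share was 183 of 299 (61.2%, interval 55.6% to 66.6%), and from 5 to 10 kb it was 147 of 271 (54.2%, interval 48.3% to 60.1%). These intervals overlap, and whether the share changes with distance was not tested. The intervals cover counting error only, and sites near 1 another are not independent.

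**Figure D4:**
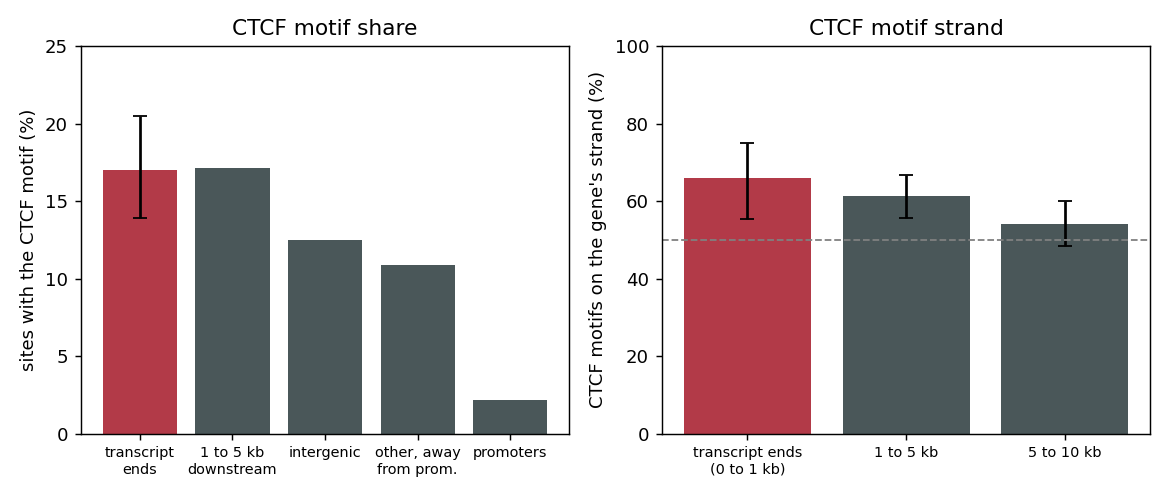
Left, share of sites with the CTCF motif (vertical axis, %) by position, with the 95% Wilson interval for transcript-end sites, where 17.0% had it against 10.9% of other sites away from promoters. Right, share of CTCF motifs on the gene's strand (%) by distance downstream of the end, with 95% Wilson intervals and a dashed line at 50%, which is 65.9% in the first kilobase and 54.2% at 5 to 10 kb.

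CTCF motifs at transcript ends were covered by footprints more often than the RUNX and ETS motifs described next. In replicates 2 and 3, a footprint covered 81 of 85 CTCF motifs (95.3%) and 76 of 85 (89.4%), and in replicate 1 it covered 26 of 53 (49.1%). The same shares at other sites away from promoters were 63.0%, 91.3% and 87.6%. At 49 of the 85 sites the motif was covered in every library holding the site. Sites with the motif had median percentiles of 41.8, 65.1 and 63.5, and those without it 53.3, 58.5 and 57.3, so they ranked lower in replicate 1 and higher in replicates 2 and 3. The sites with a CTCF motif were found in all 3 libraries in 53 cases (62.4%), those without in 195 (46.9%). At other sites away from promoters the shares were 59.8% with the motif and 41.2% without it.

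The E-box CAGGTG, bound by ZEB and E proteins, was covered more at transcript ends than at other sites. It can lie within a CTCF motif, and 31 of the 89 transcript-end sites that held it also held a CTCF motif. Without sites that had a CTCF motif, a footprint covered 38.2%, 40.6% and 37.5% of E-boxes at transcript ends (34, 64 and 64 motifs), and 18.4%, 23.8% and 21.8% at the other sites. CTCF sites that differ from the 12-base consensus searched were not removed by this. The libraries of the 2 groups did not overlap, and signal was not held equal here. With all sites counted, the E-box CAGCTG (27.3%, 25% and 30.8% against 14.6%, 19.6% and 18.4%) did not overlap either. Nor did the PU.1 motif GAGGAAGT (25%, 22.2% and 22.2% against 7.44%, 15% and 12.1%). At transcript ends these 2 rest on 33, 52 and 52 CAGCTG motifs and on only 8, 27 and 27 PU.1 motifs. The octamer (5, 9 and 9 motifs) and NRF1 (2 in each library) were also higher without overlap, and NF-Y (3, 4 and 4) was lower without overlap. The other motifs of the 25 searched overlapped where each library had a value. The libraries score the same few motifs, so a lack of overlap does not measure counting error over sites. Coverage at sites 1 to 5 kb downstream was not measured. For RUNX motifs the shares were 20.8%, 29.8% and 30.5% against 13.8%, 23.4% and 26.3%, higher at transcript ends in 3 of 3 libraries. ETS motifs GGAAGT, covered in 13%, 18.1% and 16.0% of cases against 12.4%, 20.6% and 19.8%, showed no common direction.

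The strongest transcript-end site lay behind Gm21887 on the X chromosome, at percentiles 97, 99.5 and 98.5. None of its 32-base words occurs at only 1 place in the assembly, so its signal cannot be assigned to that copy. Next came Fam120a (an RNA-binding protein), with authors' signals of 6.91, 18.9 and 19.0 at percentiles 95.3, 98.6 and 98.4. Its site lay 458 bp behind the end and 7642 bp from any annotated start site. Copz2, a subunit of the coat of Golgi transport vesicles, had signals of 6.70, 14.8 and 13.7, at percentiles 94.8, 97.3 and 96.5, although its own promoter was open in none of the libraries. Ctdsp1, a phosphatase of the RNA polymerase II tail, had signals of 7.10, 10.1 and 16.2, the highest in replicate 3.

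Lag3, an inhibitory receptor of activated lymphocytes that binds MHC class II, carried the strongest site of any natural killer list gene. That site lay 600 bp behind the end with signals of 5.95, 12.2 and 12 at percentiles 93.2, 96.2 and 95.7, and its CTCF motif was footprinted in every library. The Lag3 promoter itself was open in 1 library. A second site, 93 bp behind the same end, was found in replicates 2 and 3 only, at percentiles 53.9 and 33.4. The remaining sites among the 12 strongest lay behind Ripor1, Dnajb12, a co-chaperone of the endoplasmic reticulum, Mrpl58, a release factor of mitochondrial ribosomes, Slc34a3, a phosphate transporter, Per1, a component of the circadian clock, Vamp2, a vesicle fusion protein, and Bcan, a proteoglycan of brain matrix. Their mean percentiles ran from 91.1 at Bcan to 94.2 at Ripor1. Among the 12, 5 were CpG-rich, against 35 of all 501 sites. Of the 12, 8 lay behind a gene with a promoter open in all 3 libraries, close to the share over all sites (338 of 501). The CTCF motif, by its 12-base consensus, was held by 3 of the 12, against 85 of all 501 sites. The Per1 site had its middle in a RefSeq exon.

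Among genes known in natural killer cells, sites lay most often behind transcription factors and cytokine signalling genes. Of 30 eligible transcription factor genes 6 had a site (20%), Bach2, Cbfb, Elf4, Eomes, Ikzf3 and Klf2, and of 30 cytokine signalling genes 6 did (20%), among them Il12rb1, Il18r1, Socs1 and Socs3. Receptor genes had sites in 4 of 34 cases (11.8%, Cd2, Klrg1, Lag3 and Ncr1), trafficking genes in 1 of 20 (Cd69) and cytotoxic effectors in 1 of 22 (Gzmf). Among B cell genes Blk and Ebf1 had a site (2 of 18), and among T cell genes Ctla4 (1 of 12). Across all eligible genes the share was 3.25%. The lists are short, and nothing was tested about them.

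Socs3 had percentiles of 82.5, 93.5 and 94.9, with 5, 5 and 7 footprints. Klf2, a transcription factor of lymphocyte quiescence and migration, had 74.5, 87.4 and 83.9 over a peak of 660 bp, with 6, 15 and 9 footprints. Elf4, an ETS factor, reached 68.3, 87.6 and 83.3, and Cd2, an adhesion receptor, 62.1, 85.3 and 85.4. Each of these 4 sites was lowest in replicate 1. Ikzf3, the Aiolos zinc-finger factor, had a site 161 bp behind its end at 72.6, 73.9 and 77.3 and another at 911 bp at 57.1, 70.0 and 75. The nearer Ikzf3 site had its middle in a RefSeq exon.

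Eomes, a T-box transcription factor that natural killer cells need to mature, had percentiles of 39.7, 55.4 and 68.7 at a site 489 bp behind its end, inside another annotated gene and in a RefSeq exon. Il18r1, a subunit of the interleukin 18 receptor, had 63.7, 62.7 and 75.6, and Il12rb1, of the interleukin 12 receptor, 55.7, 71.5 and 65.2. The Il12rb1 site also lay in a RefSeq exon. Socs1 (58.2 and 71.3) and Klrg1, an inhibitory lectin-like receptor (52.9 and 72.1), were found in replicates 2 and 3 only and were higher in replicate 3. Bach2, a transcriptional repressor, stood at 53.3, 79.3 and 76.7 with a footprinted CTCF motif. Gzmf, a granzyme, had the lowest mean percentile of these (43.2), with 18.5, 54.1 and 56.9, and 75.2% of the 32-base words of its site occurred at 1 place. The B and T cell genes fell in the same range. Ebf1, a factor of early B cells, had 33.7, 81.3 and 68.0, Blk, a B cell kinase, 66.7 and 60 in replicates 2 and 3, and Ctla4, an inhibitory receptor of T cells, 72.8 and 58.6.

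**Figure D5:**
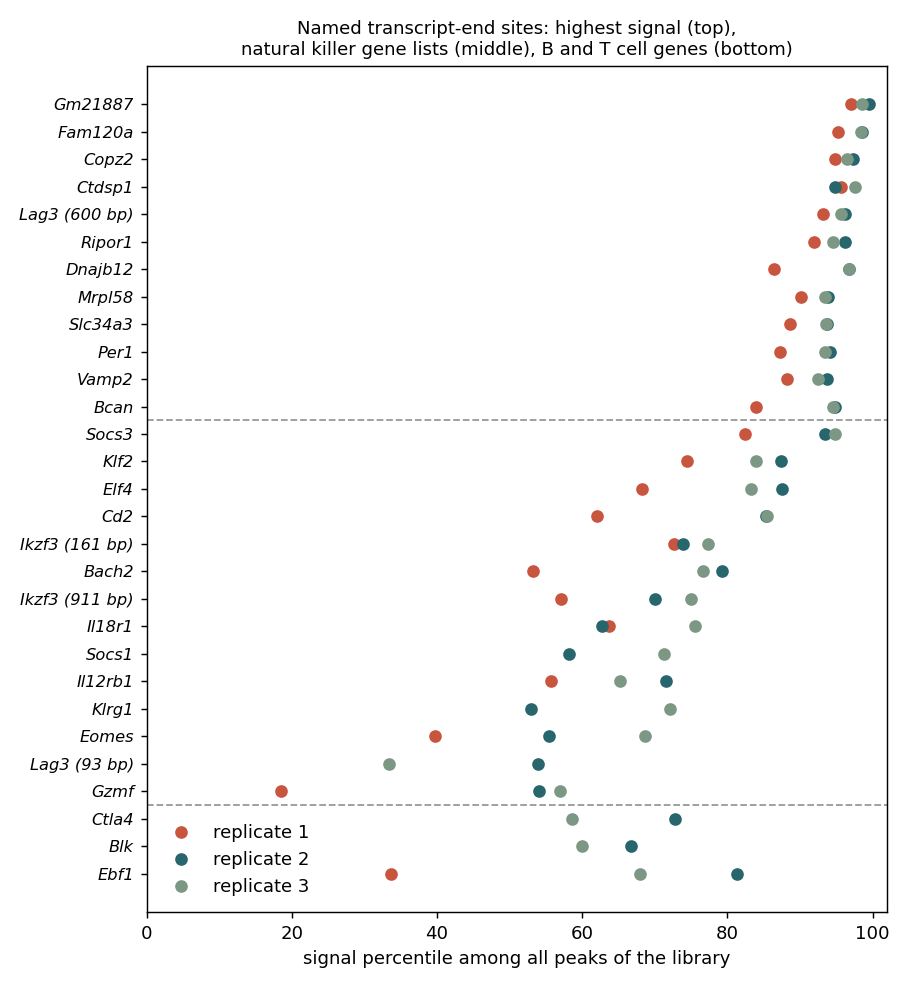
Signal percentile (horizontal axis, rank among all peaks of the library) of the named sites in each library in which a site was found, 1 point per library and 1 row per site, with the distance behind the end where a gene has 2 sites. Dashed lines separate the 12 strongest sites, the sites behind natural killer list genes and those behind B and T cell genes. The 12 strongest sites have mean percentiles from 91.1 to 98.3.

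Between replicates 2 and 3 the signal of transcript-end sites differed less than that of other sites away from promoters. After each library was centred on the other sites away from promoters, 25 of 499 sites (5.01%) differed by more than 2-fold, against 8.52% of 38150 other sites. Signal strength was not held equal in this, and sites 1 to 5 kb downstream were not compared. Higher in replicate 2 were the sites behind Cep170, a centrosomal protein (log2 difference 1.29), Sdc4, a heparan sulfate proteoglycan (1.17), Fam98a (1.11), Zc3h12d, an RNA-binding regulator of lymphocytes (1.05), and Plekho1 (1.02). All 5 were missing from replicate 1, as were 251 of all 501 transcript-end sites (50.1%). Higher in replicate 3 were those behind Slc25a53 (−1.68), Smug1, a uracil DNA glycosylase (−1.42), Olfr718-ps1 (−1.32), Ugcg, the glucosylceramide synthase (−1.31), and Trim52 (−1.28). Of these, the Slc25a53 and Ugcg sites were missing from replicate 1 too. The Slc25a53 site was 93.0% repeat-masked, with 32.5% of its words at 1 place. The Cep170 site lay in a RefSeq exon and the Olfr718-ps1 site near a RefSeq start. With 1 library on each side these differences have no replicate check.

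Footprints were most numerous behind Mrpl58 (11, 10 and 9) and Klf2, followed by Dcps, the scavenger mRNA decapping enzyme (8, 8 and 10 over 440 bp), Adra1d, an adrenergic receptor (7, 8 and 6 over 360 bp), and Tnfaip3, the A20 inhibitor of NF-kB signalling (8 and 6 in replicates 2 and 3 over 600 bp). These peaks are wider than the median of 200 bp. The Tnfaip3 site was 78.5% repeat-masked, and the Adra1d site had its middle in a RefSeq exon. Footprinted CTCF motifs with the highest signal lay behind Lag3, Ripor1, Bcan, Srxn1 (an enzyme of oxidative stress defence, 78.5, 86.0 and 87.4), Acvrl1 (a receptor of the TGF-beta family, 70.4, 89.6 and 85.2), Elf4, Scgb1a1 (a secreted airway protein, 62.6, 87.6 and 86.2) and Rhebl1 (a small GTPase, 60.5, 82.8 and 82.7). The promoters of Bcan and Scgb1a1, genes of brain and airway, were open in no library, and that of Acvrl1 in 1.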

How the data were processed

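Per the labels, each library is 1 DNase-seq experiment on mm10. For each the authors deposited 2 peak lists with a signal per peak, footprints and intervals with a q-value (the FDR of the cut rate, up to 0.05). The tools that called peaks and footprints are not stated. The larger peak list was used; how the signal was scaled is not stated, so it was ranked within a library. The footprint score, constant at 0.01, was not used.

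Peaks were classed by their middle against GENCODE vM21 and joined across libraries by at least 1 bp of overlap. A footprint was counted where its middle lay in the library's peak, and it covered a motif where it overlapped at least 50% of it. The CTCF motif was searched by its 12-base consensus, so a CTCF site that departs from it was counted as without the motif. Medians and shares were taken per library, and differences were tested by exact two-sided sign-flip over 3 libraries. Python 3.11.15, pandas 2.3.3, scipy 1.17.1 and pysam 0.24.0 were used, and the classification was tested on simulated data. Sequences are from the RefSeq copy of GRCm38.

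The sites, gene lists and motifs were chosen with earlier results of these data known. Named are the 12 strongest sites found in all 3 libraries, up to 15 behind natural killer list genes, those behind B and T cell genes, the 5 most different each way between replicates 2 and 3, the 5 with most footprints and the 8 strongest with a footprinted CTCF motif. Sequences reaching into an exon were not printed. Alternatives covered the peak list, window, annotation, joining, comparison sites and libraries.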

Additional observations from a re-analysis of the deposited data

How the results depend on the processing

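The number of sites was 501. It was 242 when every library had to hold the site, 246 with a 500 bp window, 1000 with a 2 kb window, 307 for ends more than 5000 bp from a start site, and between 243 and 496 with 1 library left out. The signal percentile difference from other sites away from promoters (6.98) was positive in every alternative run. It was 4.83 for sites in all 3 libraries, 5.63 with a 500 bp window, 5.81 against intergenic sites, 5.31 with sites weighted by distance from a start site (added after seeing the data), and from 5.13 to 6.27 with 1 library left out. The difference from sites 1 to 5 kb downstream (0.313) was −1.01 with a 500 bp window, −1.29 with a 2 kb window, and from −0.437 to 1.32 with 1 library left out. The footprinted share difference (3.41) was 0.171 with sites weighted by signal class, and from 2.10 to 4.29 with 1 library left out. The density difference (−0.321 per Mb) was −1.28 with the smaller peak list, −0.992 with a 500 bp window, 1.17 with a 2 kb window, −0.955 with every annotated 3' end, −1.90 for ends more than 5000 bp from a start site, and from −0.617 to −0.00062 with 1 library left out. The joining rule and the number of libraries do not enter the density, so those alternatives were not run for it. The log2 ratio of the CTCF motif share over other sites (0.64) lay between 0.51 and 0.65 in its 5 alternatives. The CRE motif, at 1 site, gave no value without replicate 2 or 3. No paired analysis was possible because there is only 1 group of samples, so no groups could be paired by replicate number. All differences were taken within each library.

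Replicate 1, with fewer peaks, decides which sites count as found in all libraries. Depth is unknown, so a site missing from a library cannot be told from one below detection there. With 3 libraries the exact sign-flip test cannot reach 0.05.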

Other observations

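Behind some ends the accessible site overlapped a tRNA gene, a short gene of RNA polymerase III with its promoter inside the transcribed sequence. This was looked at after the values had been seen. Of the 501 transcript-end sites, 5 (0.998%) had a peak that overlapped a tRNA gene of the RefSeq annotation, against 139 of 38487 other sites away from promoters (0.361%) and 9 of 1753 sites 1 to 5 kb downstream (0.513%). The counts are small and were not tested. All 5 lay on chromosome 11, with 2 behind Mrpl58, 2 behind Per1 and 1 behind Arl5c, and all 5 were found in every library. The stronger Mrpl58 site had percentiles of 90.2, 93.9 and 93.5 and the other 68.6, 88.3 and 87.0. The Per1 sites had 87.3, 94.1 and 93.4, and 51.5, 73.8 and 73.3. The Arl5c site had 85.1, 93.3 and 92.7. The Per1 and Arl5c sites had their middle in a RefSeq exon. Between 77.8% and 87.6% of the 32-base words in these 5 peaks occurred at 1 place in the assembly, and the share of their signal that belongs to other tRNA copies was not tested.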
